A study of Homo sapiens with 4 samples.

Results

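The carbonyl and aldo-keto reductases described here are 10 genes, CBR1, CBR3, CBR4, AKR1A1, AKR1B1, AKR1B10, AKR1C1, AKR1C2, AKR1C3 and NQO1, out of 29123 gene names on the microarray. Their members were taken as every probe that the array names for one of these genes, which gave 16 probes, 15 of which passed the filter on dim probes. The set was selected on the log2 ratios of CBR1 to Ctrl, which were low in GALNT3 KO cells and high in the cells labelled GALNT3/T6 KO, and the other 9 genes joined it by family. The values of CBR1 are therefore given as a description without a test and CBR1 is left out of all counts. The cells were A2780s, an established human epithelial ovarian cancer (EOC) line. Each of 4 KO clones, 2 made as GALNT3 KO and 2 as GALNT3/T6 KO, gave RNA for competition with that of mock-transfected A2780s control (Ctrl) cells on 4 dual-colour Agilent arrays that shared 1 slide. The paper pairs the KO clones with corresponding Ctrl clones, and describes a control CRISPR/Cas9 plasmid and a scramble shRNA vector. Whether the same Ctrl served both groups cannot be told from it, so differences between the groups may include a difference in Ctrl. The GALNT3 KO clones were single colonies obtained with CRISPR/Cas9 and a repair plasmid carrying puromycin resistance. GALNT3/T6 KO clones were GALNT3 KO cells that also received a lentiviral shRNA against GALNT6 with its own puromycin selection, so that all 4 clones share the GALNT3 disruption by their labels, and transduction cannot be told apart from the second group. Every value below is a log2 ratio of the KO channel over the Ctrl channel of the same array unless it is named as a log2 signal, and a gene is called where limma gave an adjusted p no higher than 0.05 (Benjamini-Hochberg, 27225 genes).

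Carbonyl reductases and aldo-keto reductases use NADPH to turn aldehydes and ketones into alcohols. Their substrates include products of lipid peroxidation, steroids, prostaglandins, sugars and drugs. CBR1 is known for reducing anthracyclines such as doxorubicin to less active alcohols, a reaction also carried out by several AKR1C enzymes. CBR1, CBR3 and CBR4 belong to the short-chain dehydrogenase family and the AKR enzymes to a separate fold family, while NQO1 reduces quinones. Many of these genes, with NQO1 as the standard example, are known targets of the transcription factor NRF2 (gene NFE2L2), which KEAP1 holds in check and which binds antioxidant response elements.

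The targeted genes were read first. GALNT3 (positions 166604416 to 166604475 on chromosome 2 of hg19) was dim (not well above background) in Ctrl and KO alike on the GALNT3 KO arrays, and there it cannot check the label. Ratios of 4.80 and 5.08 were read on the GALNT3/T6 KO-labelled arrays, where the KO channel was at least 66.0-fold brighter than on the GALNT3 KO arrays. RNA this high goes against the label. The paper checked the loss of GALNT3 on protein, by Western blot of the clones and staining of tumours. The array reads RNA, so these are unlike measures, and whether the disrupted gene is still transcribed was not tested. The arrays are therefore named by their label throughout, with every direction drawn from them subject to it. GALNT6 was at -0.47 and -0.38 in GALNT3 KO (adjusted p = 0.0446) and at -0.66 and -0.69 on the GALNT3/T6 KO-labelled arrays (adjusted p = 0.00335). Of 9 ovarian and epithelial markers, 0 were called in GALNT3 KO, and 7 were called higher on the GALNT3/T6 KO-labelled arrays, from 0.75 for CDH1 to 5.68 for KRT18, while EPCAM (0.65) and MUC16 (0.06) were not. Their Ctrl channel was not level either, since the log2 signal of KRT18 in Ctrl was 10.61 and 10.35 beside GALNT3 KO and 13.37 and 12.56 on the other arrays. Among 8 markers of other cell types, COL1A2 was called higher in GALNT3 KO (0.62), and on the GALNT3/T6 KO-labelled arrays COL1A1 (1.98) and VWF (1.32) were called higher and CD3E (-0.36) and COL1A2 (-0.32) lower. PTPRC, which marks leukocytes, was at 0.02 and 0.06 in these groups. The part of these shifts in the values below was not tested. In GALNT3 KO 42.5% of all calls were upward, against 23.5% (545 higher and 1777 lower) when arrays were centred on their median instead of loess.

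Probe sequences decide which of these near-identical enzymes a spot can read. The brightest AKR1C1 probe and the AKR1C3 probe are shown first because they gave almost the same ratios. They overlap over 41 of their 60 bases, and the capitals mark the 4 positions at which they differ within that overlap.
AKR1C1: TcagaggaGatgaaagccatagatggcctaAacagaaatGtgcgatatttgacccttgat
AKR1C3: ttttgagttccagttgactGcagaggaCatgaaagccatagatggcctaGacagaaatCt
Another AKR1C1 probe lies near the start of the transcript. Its first 29 bases are set against the end of the RefSeq window around the AKR1C2 start site, and the capital marks the only difference.
AKR1C1 near the start: aatggattcgaaataTcagtgtgtgaagc
AKR1C2 window end: aatggattcgaaataCcagtgtgtgaagc
The CBR3 probe that carried the change described below had this sequence, read along the plus strand.
CBR3: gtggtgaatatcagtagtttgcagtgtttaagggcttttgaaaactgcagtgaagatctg
The last sequence is the stretch upstream of CBR1 that holds the core of an antioxidant response element, TGACNNNGC, in capitals as its reverse complement (RefSeq, GRCh38.p14, chr21:36069820-36069918, plus strand, from -204 to -106 relative to the start site).
CBR1 upstream: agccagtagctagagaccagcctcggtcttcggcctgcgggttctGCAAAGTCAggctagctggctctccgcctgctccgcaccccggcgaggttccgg

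CBR1 has 1 probe (chromosome 21, 37445281 to 37445340) and had the widest separation of the set, which is what it was picked for. Its log2 ratio was -4.40 and -4.31 in the GALNT3 KO clones and 1.33 and 2.18 in the clones labelled GALNT3/T6 KO. The group means were -4.36 and 1.75, or 20.5-fold below and 3.37-fold above Ctrl. The log2 signal of the KO channel was 6.73, 7.49, 13.22 and 14.02 on the 4 arrays in this order. In the Ctrl channel it was 11.13, 11.80, 11.89 and 11.84, a range of 0.756, so the separation lay in the KO channel. On GALNT3 KO replicate 1 its KO signal did not stand well above background, and the low ratio is therefore not exact. With Agilent's own log ratio the GALNT3 KO mean was -6.08.

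**Figure D1:**
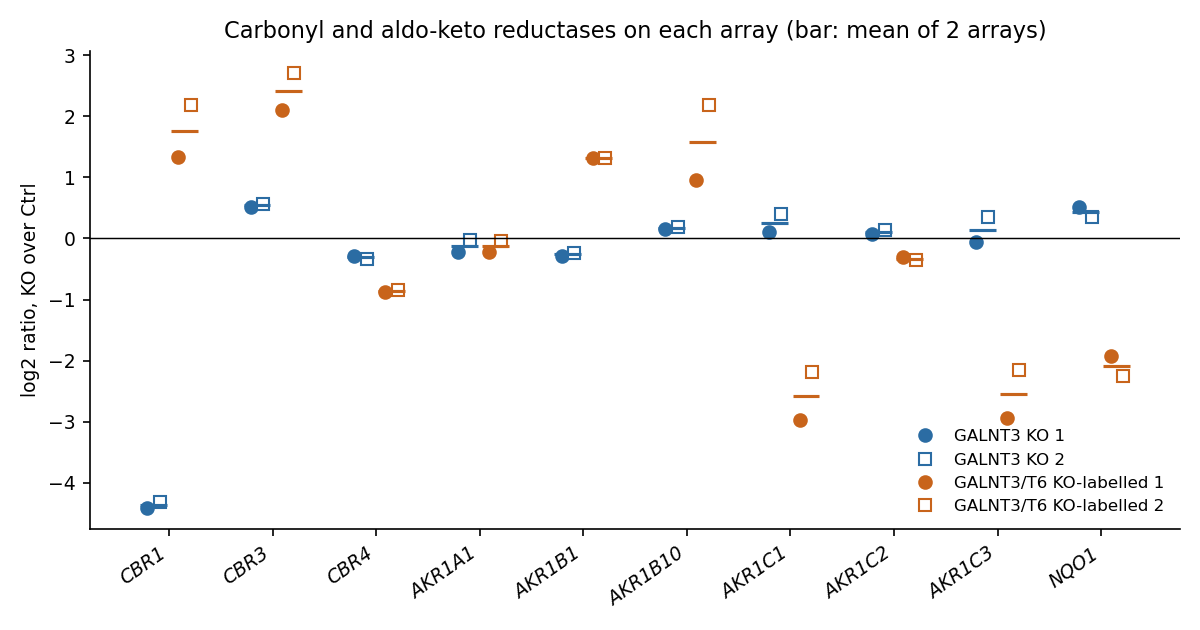
Log2 ratio of KO over Ctrl (vertical axis) for the 10 genes (horizontal axis) on each of the 4 arrays, with bars at the mean of the 2 arrays of a group. CBR1 lies near -4.36 in GALNT3 KO while the other 9 genes of that group lie between -0.31 and 0.54 on average, and the GALNT3/T6 KO-labelled arrays spread from -2.57 (AKR1C1) to 2.41 (CBR3).

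CBR3, the closest relative of CBR1 and its neighbour on chromosome 21 (37518379 to 37518438), rose on the GALNT3/T6 KO-labelled arrays. Its log2 ratio was 0.52 and 0.56 in GALNT3 KO and 2.11 and 2.72 on the GALNT3/T6 KO-labelled arrays. All 4 values were above 0 and the groups did not overlap. In GALNT3 KO the mean of 0.54 (95% confidence interval 0.12 to 0.96) missed the threshold at an adjusted p of 0.0923. The mean of 2.41 in the second group, 5.32-fold, passed it (standard error 0.16, adjusted p = 0.000628), and so did the difference of 1.87 between the groups (standard error 0.23, adjusted p = 0.00662). That difference lost its call without GALNT3 KO replicate 1 (adjusted p = 0.0994) or replicate 2 (0.0946). The GALNT3 KO value was called when only its own arrays were fitted (adjusted p = 0.00363). CBR3 signal in Ctrl ranged from 7.70 to 8.61 on the log2 scale. A second probe named CBR3, at 37510176 to 37510235 and reading the opposite strand, gave 0.09, -0.04, 0.11 and 0.03. With the mean of both probes the value on the GALNT3/T6 KO-labelled arrays was 1.24, still called.

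CBR4, a mitochondrial reductase that takes part in fatty acid synthesis, was lower on the GALNT3/T6 KO-labelled arrays. The probe at 169911259 to 169911318 on chromosome 4 gave -0.28 and -0.33 in GALNT3 KO and -0.87 and -0.85 in the other group. Every array was below 0, and replicate clones were within 0.05 of each other. The GALNT3 KO mean of -0.31 (95% confidence interval -0.51 to -0.10) missed the threshold (adjusted p = 0.0712), while the mean of -0.86 passed it (1.81-fold, standard error 0.08, adjusted p = 0.00154). The difference of -0.55 was called as well (standard error 0.11, adjusted p = 0.0273). It was lost without GALNT3 KO replicate 1 (adjusted p = 0.183) or replicate 2 (0.159), with median centring (0.129) and with the replicate number as a block (0.0888). Fitted on its own arrays, the GALNT3 KO value was called (adjusted p = 0.0366). The other CBR4 probe failed the filter on dim probes.

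**Figure D2:**
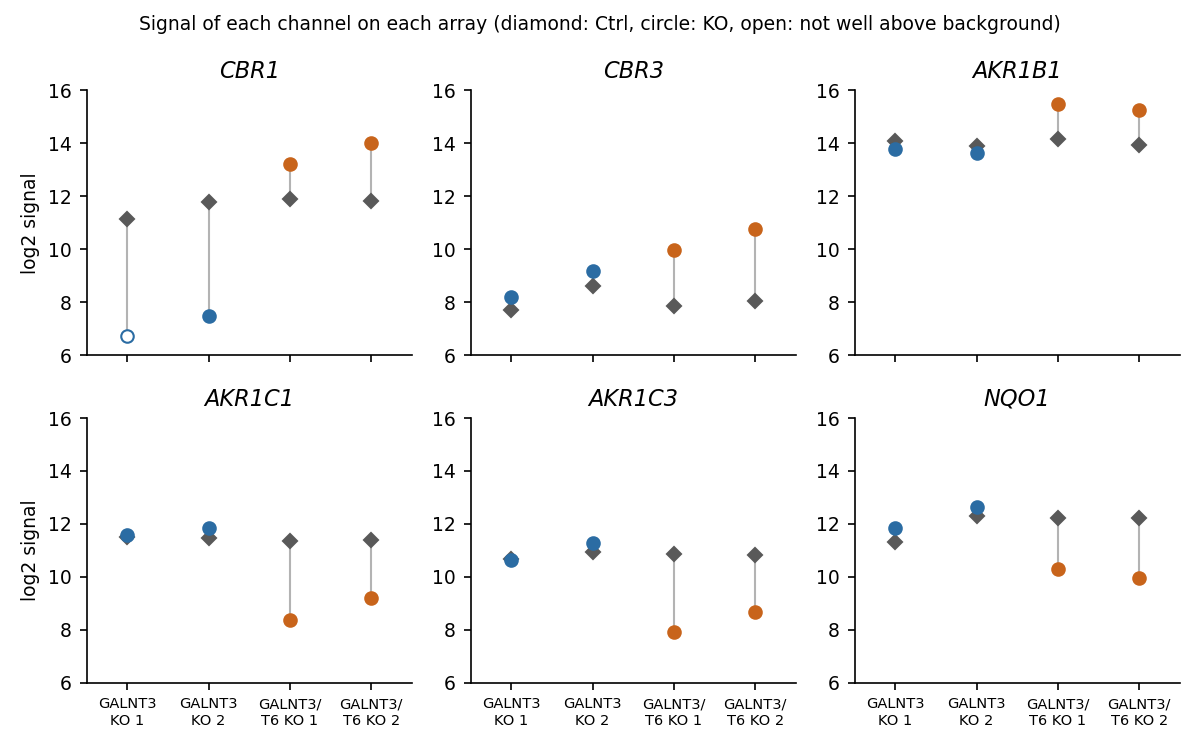
Log2 signal (vertical axis) of the Ctrl channel (diamonds) and the KO channel (circles, open where not well above background) on each of the 4 arrays for 6 genes. The Ctrl diamonds of a gene stay within 0.964 of each other, while the KO circles move. Those of CBR1 run from 6.73 in GALNT3 KO to 14.02 on the GALNT3/T6 KO-labelled arrays.

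AKR1B1, or aldose reductase, converts glucose to sorbitol in the polyol pathway. It was read by a probe at 134130061 to 134132097 on chromosome 7 and stood at -0.28 and -0.24 in GALNT3 KO against 1.31 and 1.32 on the GALNT3/T6 KO-labelled arrays. The replicate clones lay closer together than those of CBR3, and the groups fell on opposite sides of 0. The rise of 1.32 (2.49-fold, standard error 0.08, adjusted p = 0.000469) and the difference of 1.58 (standard error 0.11, adjusted p = 0.00149) were called. In GALNT3 KO the mean of -0.26 (95% confidence interval -0.47 to -0.05) was not (adjusted p = 0.0939). AKR1B10, a relative that reduces retinal and is prominent in liver and lung tumours, gave 0.15 and 0.18 in GALNT3 KO and 0.96 and 2.19 on the GALNT3/T6 KO-labelled arrays. The second pair was further apart than that of any other member on its brightest probe. The rise of 1.57 (2.97-fold, standard error 0.30) was called (adjusted p = 0.0129). This call was lost without either GALNT3 KO array (adjusted p = 0.0645), which changes only the estimate of the spread. The difference of 1.40 (95% confidence interval 0.31 to 2.50) was not called (adjusted p = 0.0791), but it was called at 2.02 without GALNT3/T6 KO replicate 1 (adjusted p = 2.11e-05) and at 0.79 without replicate 2 (0.00538). Its other probe, 0.05 and 0.18 against 0.79 and 2.19, gave a like spread. AKR1A1, the general aldehyde reductase, was at -0.23, -0.02, -0.22 and -0.04 on the 4 arrays. Of the 9 tested members it alone was called in none of the 3 comparisons. Its means were -0.12 (95% confidence interval -0.39 to 0.14) and -0.13 (-0.40 to 0.14), and the groups differed by -0.01 (-0.38 to 0.37).

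The AKR1C enzymes lie side by side on chromosome 10 and act on steroids. AKR1C1, which inactivates progesterone, fell on the GALNT3/T6 KO-labelled arrays. Its brightest probe (5018064 to 5018123) gave 0.10 and 0.40 in GALNT3 KO and -2.96 and -2.18 on the GALNT3/T6 KO-labelled arrays. In the second group the KO log2 signal was 8.38 and 9.21 against 11.34 and 11.39 in Ctrl. The fall to a mean of -2.57 (5.95-fold, standard error 0.21, adjusted p = 0.00109) and the difference of -2.82 (standard error 0.30, adjusted p = 0.00438) were called, whereas GALNT3 KO was at 0.25 (95% confidence interval -0.30 to 0.80, adjusted p = 0.428). A downstream probe gave 0.12, 0.47, -2.19 and -1.86. The probe near the start of the transcript, shown above beside AKR1C2, gave 0.12, -0.11, -0.30 and -0.32 and missed the threshold on the GALNT3/T6 KO-labelled arrays (adjusted p = 0.0505). With the mean of the 3 probes AKR1C1 stood at -1.64 there, still called. AKR1C3, which makes testosterone from its precursor and also reduces anthracyclines, gave -0.06, 0.34, -2.93 and -2.15 at 5147789 to 5147848. These values tracked those of AKR1C1 array by array, and with 41 overlapping probe bases the genes are uncertain as separate results; whether the spots share RNA was not tested. AKR1C3 fell by 2.54 (5.82-fold, standard error 0.22, adjusted p = 0.00129) and differed by -2.68 between the groups (standard error 0.31, adjusted p = 0.00571). The differences of AKR1C1 and AKR1C3 lost their calls without GALNT3 KO replicate 1 (adjusted p = 0.0723 and 0.0752) or replicate 2 (0.0791 and 0.0872). AKR1C2, which inactivates dihydrotestosterone, is read here by a single probe of low signal (5055705 to 5055764) that the array lists for an Ensembl transcript. It gave 0.08 and 0.13 in GALNT3 KO and -0.31 and -0.36 on the GALNT3/T6 KO-labelled arrays, on log2 signals between 6.81 and 7.54. The fall to a mean of -0.33 (1.26-fold, adjusted p = 0.0254) lost its call without either array of its own group (adjusted p = 0.0573 and 0.0892), without either GALNT3 KO array (0.0781), with median centring (0.122) and with the replicate block (0.0766). The difference of -0.44 missed the threshold (adjusted p = 0.0522), but it was called with the log ratio of Agilent (-0.68, adjusted p = 0.0449), the value table (-0.68, 0.0448), the mean of all probes (0.0406) and the methods' t-test before adjustment (0.00682).

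NQO1, the quinone reductase, had its probe at 69744274 to 69744333 on chromosome 16. It was at 0.51 and 0.36 in GALNT3 KO and -1.93 and -2.25 on the GALNT3/T6 KO-labelled arrays, so the groups lay on opposite sides of 0. The fall, at a mean of -2.09 (4.25-fold, standard error 0.11), had an adjusted p of 0.000375, the lowest of the 9 tested members. The difference of -2.53 was called (standard error 0.16, adjusted p = 0.00119) and kept its call under every alternative except the methods' t-test after adjustment (0.0874). In GALNT3 KO the mean of 0.44 (95% confidence interval 0.14 to 0.74) was not called (adjusted p = 0.0733), though it was on its own arrays (0.0105). Ctrl log2 signals were 11.33, 12.29, 12.21 and 12.22, a range of 0.964. The means of NQO1 had signs opposite to those of CBR1 in both groups, and so did the means of AKR1C1, AKR1C2 and AKR1C3. For AKR1C3 the sign in GALNT3 KO was not steady, with -0.06 on replicate 1. AKR1B1 (-0.26 and 1.32) had the signs of CBR1 in both groups, and the remaining members shared its sign in a single group. None of these genes was called in GALNT3 KO, and CBR1 was picked for its values.

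Over the 9 members without CBR1, 0 were called in GALNT3 KO, where 11.0% of all genes were called, and 4 had a p under 0.05 before adjustment. On the GALNT3/T6 KO-labelled arrays 3 were called higher (CBR3, AKR1B1 and AKR1B10) and 5 lower (CBR4, AKR1C1, AKR1C2, AKR1C3 and NQO1), beside 47.8% of all genes, 24.8% higher and 23.1% lower. Between the groups 2 were higher and 4 lower, beside 23.7% of all genes. The medians over the 9 were 0.14, -0.33 and -0.44, against 0.02, 0.03 and -0.00 over all genes. The set was chosen through CBR1 and with earlier results of these data known, so nothing is read from the counts. By the methods' t-test after adjustment 0 members were called in any comparison, and without it 2 were called in GALNT3 KO. Both group comparisons with Ctrl use Ctrl RNA on every array. Variation of the Ctrl channel between arrays enters the spread of the ratios. Without a Ctrl-to-Ctrl array it cannot be told apart from the spread of the KO clones.

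Another 45 enzymes that oxidize or reduce carbonyl groups were listed, of which 42 were tested. In GALNT3 KO 4 rose and 3 fell, beside 4.69% and 6.34% of all genes called higher and lower, with a median of 0.04 against 0.02. SPR, which completes the synthesis of tetrahydrobiopterin, rose by 1.62 (1.71 and 1.53 on the 2 arrays, adjusted p = 0.00886) and was at -0.09 on the GALNT3/T6 KO-labelled arrays, a difference of -1.71 (adjusted p = 0.00237). DHRS7, a short-chain dehydrogenase, rose by 0.84 (adjusted p = 0.0235) and HSD17B12, an enzyme of fatty acid elongation, by 0.64 (adjusted p = 0.0377). The falls were those of ALDH2, the mitochondrial acetaldehyde dehydrogenase, at -0.84 (adjusted p = 0.0259), CRYZ, a quinone reductase, at -0.75 (adjusted p = 0.0425), and ALDH1A1, a retinal dehydrogenase, at least 1.35-fold lower (adjusted p = 0.0336), a bound that rests partly on dim Ctrl signal since KO was well above background on 0 and Ctrl on 1 of the 2 arrays. On the GALNT3/T6 KO-labelled arrays 10 rose and 10 fell, near the 24.8% and 23.1% of all genes, with a median of 0.06 against 0.03. ALDH1A3, which makes retinoic acid, was at 5.96 and 6.63, with a mean of 6.30 against -0.02 in GALNT3 KO (difference 6.32, adjusted p = 0.000464). Its Ctrl log2 signal was 8.23 and 8.44 beside GALNT3 KO and 10.10 and 9.69 on these arrays. DHRS3, which reduces retinal, was at 3.17 (adjusted p = 0.000157) and HSD17B12 at 2.77 (adjusted p = 0.000172). HSD17B11, a lipid droplet steroid dehydrogenase, fell by 2.36 (adjusted p = 0.00163), SORD, which follows AKR1B1 in the polyol pathway, by 1.62 (adjusted p = 0.00071), and CRYZ by 1.37 (adjusted p = 0.00194). Between the groups 6 were higher and 9 lower, beside 11.8% of all genes in each direction. The falls there were led by SPR, HSD17B11 (-1.63, adjusted p = 0.0235) and TP53I3, a p53-induced oxidoreductase (-1.52, adjusted p = 0.0333). Without either GALNT3 KO array the calls of this list in GALNT3 KO went from 7 to 0, and without either of the other arrays to 19. Its calls between the groups went from 15 to 3 and 4 without GALNT3 KO replicates 1 and 2, and to 25 without GALNT3/T6 KO replicate 1.

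NFE2L2 was called higher than Ctrl in both groups, though in GALNT3 KO not under every alternative. KEAP1 was called lower only on the GALNT3/T6 KO-labelled arrays. NFE2L2 rose in GALNT3 KO (0.91 and 0.88, mean 0.89, adjusted p = 0.0260) and on the GALNT3/T6 KO-labelled arrays (0.30 and 0.65, mean 0.48, adjusted p = 0.0249), with a difference that was not called (-0.42, adjusted p = 0.142). KEAP1 was at -0.25 in GALNT3 KO (adjusted p = 0.171) and fell by 0.79 in the other group (adjusted p = 0.0052). Of 36 tested NRF2 genes in all, 2 rose and 6 fell in GALNT3 KO, beside 4.69% and 6.34% of all genes, with a median of -0.03 against 0.02. This list mixes target genes with regulators of the pathway, namely NFE2L2, KEAP1, CUL3, BACH1, MAFF, MAFG and MAFK. Its counts and medians are therefore not those of targets alone. Besides NFE2L2 the rise was TRIM16L (0.61, adjusted p = 0.0344). With Agilent's log ratio, the value table, median centring or the replicate block, 0 NRF2 genes were called higher in GALNT3 KO. The calls of NFE2L2 and TRIM16L there were thus lost under each of these. The falls were led by ABCB6, a porphyrin transporter (-1.17, adjusted p = 0.0180), PIR, an iron-binding nuclear protein (-1.10, adjusted p = 0.0464), and GCLM, the regulatory subunit of glutathione synthesis (-0.89, adjusted p = 0.0460). On the GALNT3/T6 KO-labelled arrays 13 rose and 8 fell, beside 24.8% and 23.1% of all genes, with a median of 0.24 against 0.03. NFE2L2 is among these rises, and KEAP1 and CUL3 (-0.59, adjusted p = 0.00541) are among these falls. The rises were led by the ferritin chains FTH1 (4.42, adjusted p = 0.000575) and FTL (2.40, adjusted p = 0.00173) and the autophagy receptor SQSTM1 (2.70, adjusted p = 0.000193). The Ctrl log2 signal of FTH1 was 16.66 and 16.94 beside GALNT3 KO and 14.93 and 13.75 on these arrays, a range of 3.18, while its KO signal was 17.51 and 17.33 against 18.80 and 18.72, so more of the gap between the groups lay in the Ctrl channel than in the KO channel. ABCB6 fell by 2.12 (adjusted p = 0.00035), the peroxiredoxin PRDX1 by 1.46 (adjusted p = 0.000624) and PGD, which supplies NADPH, by 1.43 (adjusted p = 0.00648). GCLM rose there by 0.81 (adjusted p = 0.0182), opposite to GALNT3 KO, a difference of 1.69 (adjusted p = 0.0103). GCLC, its catalytic partner, named here for that reason, fell in both groups (-0.61, adjusted p = 0.0452, and -1.03, adjusted p = 0.00282). Between the groups 7 were higher and 4 lower, beside 11.8% of all genes in each direction. TXNRD1, thioredoxin reductase, was higher by 2.20 (adjusted p = 0.00378), and its substrate TXN was lower at -1.13 (adjusted p = 0.0467). Without either GALNT3 KO array the calls in GALNT3 KO went from 8 to 0, those in the second group from 21 to 13, and those between the groups from 11 to 2 and 1. Leaving out GALNT3/T6 KO replicate 1 or 2 gave 18 in GALNT3 KO and 18 and 22 between the groups.

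RefSeq promoter windows, 250 bases before to 50 after each start site, were matched for 8 of the 10 genes, with 10 windows among them. The motif TGACNNNGC, searched on both strands, was in 1 of these windows, that of CBR1 at -159, and in 13.3% of all 35116 windows. A window without these letters says nothing about sites elsewhere. Windows of AKR1C1 and AKR1C2 were 98.6% identical over 292 aligned bases, whereas those of AKR1C1 and AKR1C3 were 78.0% and 79.5% identical for the 2 AKR1C3 windows.

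Genes around CBR1 were closer to Ctrl than CBR1 in GALNT3 KO, which is likely for any genes because CBR1 was picked for its low value. Of the 15 tested genes with probes within 1 Mb of the CBR1 probe, CBR3 left out, 0 were called there, beside 11.0% of all genes (3 had a p under 0.05 before adjustment by limma, and 4 by the methods' t-test), and they ranged from -0.87 for CHAF1B to 0.33. SETD4, the neighbour on the near side, was at -0.20 on both GALNT3 KO arrays and at 0.19 and 0.36 on the others (adjusted p = 0.170 and 0.0544). Between CBR1 and CBR3, CBR3-AS1 was at 0.10, 0.42, 0.24 and -0.03 and was not called, and the transcript ENST00000419943 fell by 1.06 on the GALNT3/T6 KO-labelled arrays (adjusted p = 0.0025) and differed by -1.18 between the groups (adjusted p = 0.00923). DOPEY2, beyond CBR3, was at 0.09 and 0.04 in GALNT3 KO and rose on the GALNT3/T6 KO-labelled arrays (0.94 and 1.81, adjusted p = 0.00752), with a difference of 1.31 (adjusted p = 0.0410). On GALNT3 KO replicate 1 DOPEY2 was dim in both channels, so its ratio there and the difference are not exact. On the GALNT3/T6 KO-labelled arrays 1 gene of the 15 rose and 5 fell, near the 47.8% of all genes called, with HLCS (-1.68, adjusted p = 0.0171) and MORC3 (-0.86, adjusted p = 0.0161) among the falls. Between the groups 2 were called, beside 23.7% of all genes. Without either GALNT3 KO array the 6 calls became 3, and the 2 calls between the groups became 0. Leaving out GALNT3/T6 KO replicate 1 or 2 gave 6 calls in GALNT3 KO and 5 between the groups.

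By Euclidean distance over the 4 log2 ratios, the tested genes most like CBR1 were MEST (distance 1.85), PREX1 (2.20), SLC16A3 (2.65), FAM111A (2.89) and RBMS1 (2.90). MEST, an imprinted gene, was at -4.10, -4.23, 1.48 and 3.99. PREX1, an activator of Rac, was at -2.67, -3.15, 0.97 and 1.60. SLC16A3, a lactate exporter, was at -3.05, -2.99, 2.75 and 3.37. FAM111A was at -2.39, -2.30, 1.80 and 2.12, and RBMS1 at -3.69, -1.95, 2.70 and 2.85. Each was below Ctrl on both GALNT3 KO arrays and above it on both of the others, which the choice of the nearest genes makes likely. None of the 5 lies on chromosome 21, and their probes are on chromosomes 7, 20, 17, 11 and 2.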

How the data were processed

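Total RNA of 4 KO clones, 2 per group, was hybridized with Ctrl RNA on Agilent arrays. Per the labels Ctrl carried Cy3 and KO Cy5 on every array, with no dye swap, and the paper's methods name a reverse-color labelling, so a dye effect cannot be told apart from KO against Ctrl. The authors deposited scanner intensity values per spot, extracted with Agilent Feature Extraction (8.5.1.1 in the submitters' notes, 10.7.3.1 in the file header), with Agilent's log10 ratio, and a value table on the same scale. Here limma 3.58.1 (R 4.3.3) applied normexp (offset 50) and loess within arrays, leaving out control spots and outlier flags. Each gene was read by its brightest probe well above background in a channel on both arrays of a group. lmFit and eBayes fitted all 4 arrays with a mean per group, with Benjamini-Hochberg adjustment over 27225 genes. Channel signals were scaled with Aquantile. Between 86.9% and 93.8% of spots were well above background and 0 were saturated, and the number of arrays limits the precision. The replicates are clones, and p-values measure only the spread between their arrays, the Ctrl channel included.

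The members, gene lists and the rule for named genes were chosen with earlier results of these data known. Named were all members, the 3 largest called rises and falls of each list in each comparison, NFE2L2, KEAP1, the genes next to CBR1 and CBR3, the 5 genes nearest to CBR1 by distance, and GALNT3 and GALNT6. CHAF1B, GCLC and CUL3 were named after their values were seen, and BACH1, MAFF, MAFG and MAFK as regulators within the NRF2 list. Alternatives were Agilent's log ratio, the value table, the mean of all probes, no background correction, median centring, no filter, own arrays only, the replicate block, the methods' t-test and each array left out. The methods' t-test is Student's t-test on the ratios of a group, or between the groups, without a fold filter. The paper gives that test for Western blots and functional assays. For the arrays it states a p-value and a fold threshold without naming a test, so its own calls are not reproduced here.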

Additional observations from a re-analysis of the deposited data

Results flagged for a closer look

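For 6 of the 9 tested members the effect against Ctrl differed between the groups by limma's test of the difference itself (log2, GALNT3/T6 KO-labelled arrays minus GALNT3 KO). The differences were 1.87 for CBR3 (adjusted p = 0.00662), -0.55 for CBR4 (0.0273), 1.58 for AKR1B1 (0.00149), -2.82 for AKR1C1 (0.00438), -2.68 for AKR1C3 (0.00571) and -2.53 for NQO1 (0.00119). Over all genes 23.7% were called in this comparison, and nothing is read from the count of members. The groups did not overlap for any of the 6, which picking genes by this difference makes likely. The same held for AKR1B10 and AKR1C2, whose differences were not called, so it does not set the 6 apart. The share of all genes without such overlap was not counted. On every array AKR1B1 lay below Ctrl in GALNT3 KO and above it on the GALNT3/T6 KO-labelled arrays. NQO1 and AKR1C1 lay the other way round, and CBR3 and CBR4 kept 1 side of Ctrl in both. None of the GALNT3 KO values of these genes was called. The AKR1C1 and AKR1C3 probes overlap over 41 of 60 bases with 4 differences, and whether their spots share RNA was not tested. GALNT3 RNA goes against the label of the second group, which the paper checked on protein. Groups of 2 arrays were not examined for single arrays standing apart.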

How the results depend on the processing

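No called value of a member changed sign under any alternative. Uncalled values near 0 did, namely AKR1A1 in GALNT3 KO (0.11 with Agilent's log ratio, 0.11 with the value table and 0.0033 with the mean of all probes) and between the groups (0.063 with median centring, and from -0.112 to 0.098 when 1 array was left out), and AKR1C3 in GALNT3 KO (-0.024 with median centring, and from -0.059 to 0.344 when 1 array was left out). CBR1 in GALNT3 KO was -6.08 with Agilent's log ratio and with the value table and -4.48 without background correction, and its difference between the groups was 8.01 with both of the first. With an array left out it ran from -4.40 to -4.31 in GALNT3 KO, from 1.33 to 2.18 on the GALNT3/T6 KO-labelled arrays and from 5.69 to 6.53 between them.

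Calls of the members in GALNT3 KO were 3 on its own arrays and 2 by the methods' t-test without adjustment. On the GALNT3/T6 KO-labelled arrays they were 4 by that t-test, and after adjustment it gave 0 in every comparison for the members, the other carbonyl enzymes, the NRF2 genes and the genes near CBR1. The other carbonyl enzymes in GALNT3 KO gave 1 with Agilent's log ratio, 1 with the value table, 4 with median centring and 19 on their own arrays, and on the GALNT3/T6 KO-labelled arrays 6 by the unadjusted t-test. The NRF2 genes in GALNT3 KO gave 1, 1, 5 and 18 under the same alternatives, and on the GALNT3/T6 KO-labelled arrays 13 on their own arrays and 5 by the unadjusted t-test. Genes near CBR1 gave 6 on their own arrays and 4 by the unadjusted t-test in GALNT3 KO, and 3 and 0 on the GALNT3/T6 KO-labelled arrays. With 1 array left out, which leaves a lone sample assumed to vary like the other group, the members ran from 0 to 3 in GALNT3 KO, from 6 to 7 in the second group and from 2 to 7 between the groups. The other carbonyl enzymes ran from 0 to 19, from 15 to 25 and from 3 to 25, the NRF2 genes from 0 to 18, from 13 to 26 and from 1 to 22, and the genes near CBR1 from 0 to 6, from 3 to 8 and from 0 to 5. Own arrays only changes the samples behind the spread, and elsewhere the cause was not tested.

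Over all genes, calls in GALNT3 KO were 3002 in the main setting, 590 with Agilent's log ratio, 585 with the value table, 9439 on its own arrays, and 0 without either of its arrays. Those on the GALNT3/T6 KO-labelled arrays went from 13020 to 8274 on their own arrays, and between the groups from 6439 to 1201 and 1413 without GALNT3 KO replicates 1 and 2. The methods' t-test after adjustment gave 0, 1 and 33.

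Same-numbered arrays share only a number, and their deviations from the group means correlated at r = -0.239 over genes. With the replicate number as a block the members gave 0, 7 and 5 calls, the other carbonyl enzymes and the NRF2 genes 0 each in GALNT3 KO, and the genes near CBR1 1 between the groups, while all genes gave 82, 10104 and 4748. A crossed pairing, chosen after seeing the data, gave the members 0, 8 and 7 calls and the genes near CBR1 1 in GALNT3 KO.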
